A study of Mus musculus with 6 samples.

Results

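The collagen genes were followed across the cell types of tumors grown from MOC-2, a mouse carcinoma line labelled as HNSCC (head and neck squamous cell carcinoma). The genes were chosen by their symbol (Col, a number, the letter a and a number). Of 32285 genes in the feature list, 44 had such a symbol, and the 30 with at least 50 UMIs (unique molecular identifiers, each standing for 1 captured RNA molecule) over the deposited matrix are described. The last gene inside that limit was Col13a1 with 83 UMIs, and the first outside it was Col8a2 with 49. The 30 genes held 754404 of 141434361 gene UMIs, and the 14 genes under the limit held 194 UMIs together.

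MOC-2 cells were injected under the skin of male mice, and the tumors were taken 24 h after an injection into the tumor of either vehicle (3 tumors) or an experimental agent (3 tumors). The protocol names the injected reagents (Copper(II) diethyldithiocarbamate, 2-C1-IB-MECA, the STING agonist 2'3'-c-di-AM(PS)2, 5'ppp-dsRNA/Lyovec, R848, galunisertib, epcadostat, Nw-Hydroxy-nor-L-arginine, L-NMMA, clodronate and 4-1BB ligand) and DMSO or water as solvent, but not which of them made up the drug arm. The labels name neither the strain nor the age of the mice, and the carcinoma cells all derive from 1 line. Viable cells were sorted, each tumor was tagged with an oligonucleotide, and the pool was sequenced as 3′ droplet RNA-seq. No label ties a tag or a barcode suffix to a tumor, so treated and vehicle tumors cannot be told apart here, and the pool is described as 1 sample with no test.

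Every cell barcode ends in a number from 1 to 6, its barcode set, which is given as a single value without a group. Gene UMIs per set ran from 7354560 to 38798439, no cell barcode was shared between sets, and 13747 cells passed the filters with a median of 8376 UMIs. Scrublet, a doublet caller, marked 21 cells (0.153%), so doublets were in effect not removed. Levels are in CPM, the UMIs of a gene per 1000000 gene UMIs of a class, with exact 95% Poisson intervals that cover counting error only. Since a UMI counts a molecule and not its length, levels of different genes are compared without a length correction, and how well each gene's 3′ end was captured was not tested.

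Collagens are secreted or membrane-bound proteins whose chains wind into triple helices. The fibrillar types I, III and V build the load-bearing fibrils of connective tissue and are made mainly by fibroblasts. Type IV forms the sheet of basement membranes under epithelia and around vessels, type VI forms beaded filaments beside cells, and types XV and XVIII link basement membranes to the matrix below. In carcinomas of the head and neck, fibroblasts of the stroma are known as the main source of fibrillar collagen, and carcinoma cells that have left the epithelial state can express part of the same program.

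Cell classes were gated on marker genes, none of them a collagen. Cells with a UMI of Xist, which marks an inactive X chromosome, and no UMI of 4 Y-linked genes were taken as carcinoma cells, since the hosts were male. The labels do not give the sex of the line, so this reading rests on the cells with Xist being the line's. Fibroblasts (144 cells), pericytes or smooth muscle cells (55) and endothelial cells (55) were gated on their own markers. Carcinoma cells were divided into epithelial cells (385, with at least 7 of 15 epithelial markers), mesenchymal cells (6900, with at most 4) and cells between these gates (463). Carcinoma cells with at least 7 of 14 fibroblast markers (88) were kept apart from all of these. Clusters made without collagen genes placed all 144 fibroblasts, all 55 pericytes or smooth muscle cells and all 55 endothelial cells in 1 cluster each. The carcinoma classes were spread more widely. Epithelial carcinoma cells lay in 9 clusters (72.7% in the main one), cells between the gates in 11 (23.8%) and mesenchymal carcinoma cells in 18 (16.8%). The split of the carcinoma cells therefore rests on the gates. The fibroblast markers Pdgfra and Lrrc15 stood at 521 and 369 CPM in fibroblasts, against 78.4 and 2.41 CPM in mesenchymal carcinoma cells. Other fibroblast markers were well present in mesenchymal carcinoma cells. Dcn was at 3751 CPM in those rich in matrix genes (described below) and 404 CPM in the rest, and Lum at 877 and 41.3 CPM. Rgs5 was at 8363 CPM in pericytes or smooth muscle cells, Pecam1 at 1511 CPM in endothelial cells and Krt14 at 939 CPM in epithelial carcinoma cells. Each of these last 3 genes was at most 9.49 CPM in the other 4 of these classes. All the genes named here are themselves gate markers, so their levels were set in part by the gates. T or NK cells (497), which are not known to make fibrillar collagen, served as the background from free RNA and doublets.

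Fibroblasts had by far the highest summed level of the 30 genes. It was 75159 CPM (95% interval 74680 to 75641), or 7.52% of all their UMIs. Pericytes or smooth muscle cells followed with 22514 CPM (21999 to 23037) and endothelial cells with 5133 CPM (4891 to 5384). Mesenchymal carcinoma cells had 4549 CPM (4535 to 4563) and epithelial carcinoma cells 958 CPM (932 to 985). T or NK cells had 1205 CPM, or 0.120% of their UMIs, but their median cell had no collagen UMI. The 95th percentile of these cells was at 0.122%. The pooled value of this class thus lay above that of most of its cells, and it is not the level of a typical T or NK cell. The pooled level of epithelial carcinoma cells was under that of this background class, at a median of 11705 UMIs per cell against 2740. By set the order was not the same: in sets 5 and 6 epithelial carcinoma cells were at 777 and 978 CPM and T or NK cells at 184 and 232 CPM.

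Across barcode sets the summed level of fibroblasts ran from 58891 to 93247 CPM, with a median of 75566. Pericytes or smooth muscle cells ran from 15150 to 25611 CPM, mesenchymal carcinoma cells from 3313 to 6050 CPM, endothelial cells from 2703 to 6729 CPM and epithelial carcinoma cells from 485 to 1243 CPM. The ranges of endothelial and mesenchymal carcinoma cells overlapped, and in sets 2, 5 and 6 the mesenchymal carcinoma cells were the higher of these classes. The other classes kept their order in all 6 sets. The background in T or NK cells moved far more, from 184 to 3979 CPM, the highest value being that of set 1, from 18 cells and 295 UMIs.

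**Figure D1:**
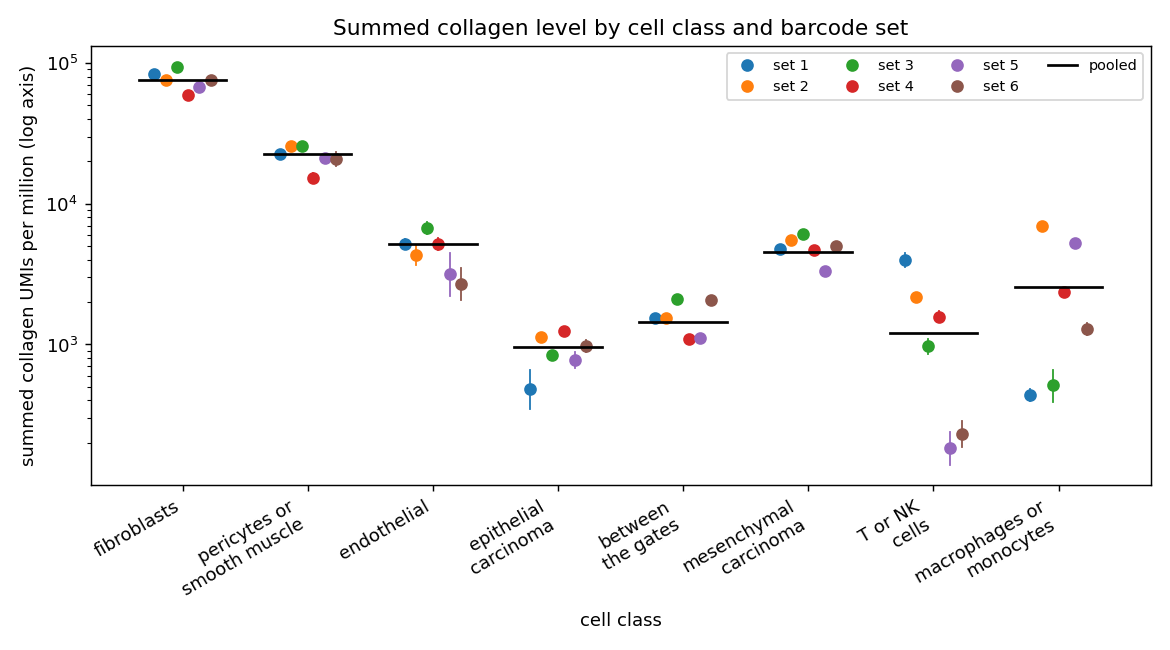
Summed level of the 30 collagen genes in CPM (vertical, log axis) in 8 cell classes (horizontal), with 1 point per barcode set, vertical lines for the exact 95% Poisson interval of each set and black bars for the pooled value. Fibroblasts lie between 58891 and 93247 in every set, above every other class shown.

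The fibroblast level was 16.5 times that of mesenchymal carcinoma cells, but the carcinoma cells were far more numerous. Mesenchymal carcinoma cells held 52.1% of all collagen UMIs of the analysed cells (interval 52.0 to 52.2%) and fibroblasts 12.6% (12.5 to 12.6%), shares that hold for the viable cells sorted and gated here. Per cell, this was a mean of 655 collagen UMIs in fibroblasts and 56.6 in mesenchymal carcinoma cells. The share in fibroblasts turned on the gate: it was 7.57% with 1 more Xist and 1 more Y-linked UMI asked of the gates, and 31.4% when the whole cluster that held the fibroblasts was counted. That cluster of 492 cells also held 67 cells with fibroblast markers and both Xist and Y-linked UMIs, which had a median of 17005 UMIs against 8774 in fibroblasts and a summed level of 38113 CPM. Whether these are doublets was not tested. With clusters in place of gates, the summed level was 48628 CPM in fibroblasts and 1680 CPM in epithelial carcinoma cells, the fibroblast levels of Col3a1, Col1a1, Col1a2, Col12a1 and Col7a1 were 15212, 13515, 10698, 1719 and 385 CPM, and the order of fibroblasts, pericytes or smooth muscle cells, endothelial cells and both carcinoma classes stayed as above. Of all collagen UMIs, a further 8.38% lay in 1712 cells with neither Xist nor Y-linked UMIs, 3.90% in 68 such cells with fibroblast markers and 2.89% in 88 carcinoma cells with fibroblast markers.

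By gene, fibroblasts had the highest pooled level of 17 of the 30 genes, pericytes or smooth muscle cells of 7, epithelial carcinoma cells of 3, mesenchymal carcinoma cells of 2 and endothelial cells of 1. The same count was not made over all genes, so it only places the members. Some placings were loose: the named class led in 2 of 6 sets for Col6a5 and Col13a1, and in 3 of 6 for Col25a1 and Col4a4. Fibroblasts stood at least 2-fold above all other analysed cells for 19 of the 30 genes, while 10.2% of the 14513 genes tested reached that fold. For pericytes or smooth muscle cells it was 17 of 30 against 9.54% of all genes, and for endothelial cells 6 of 30 (Col13a1, Col15a1, Col18a1, Col23a1, Col4a1 and Col4a2) against 12.7%. Epithelial carcinoma cells were at least 2-fold above the rest for 4 genes (Col17a1, Col18a1, Col4a3 and Col4a4), against 6.14% of all genes. Col4a3 met the UMI limit for the 30 genes only through its UMIs in this class, so its call was not independent of the choice of genes. Col13a1 met the limit only through endothelial cells and pericytes or smooth muscle cells together, and it was called in both. In mesenchymal carcinoma cells only Col28a1 reached 2-fold, against 1.01% of all genes. The median fold over the 30 genes was 6.21 in fibroblasts and 4.22 in pericytes or smooth muscle cells, beside 0.85 and 1.00 over all genes. It was 0.33 in endothelial cells, 0.16 in epithelial and 0.89 in mesenchymal carcinoma cells, beside 1.07, 0.91 and 1.03. Genes at 0 UMIs in a class entered these medians at 3 counts, as a bound.

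**Figure D2:**
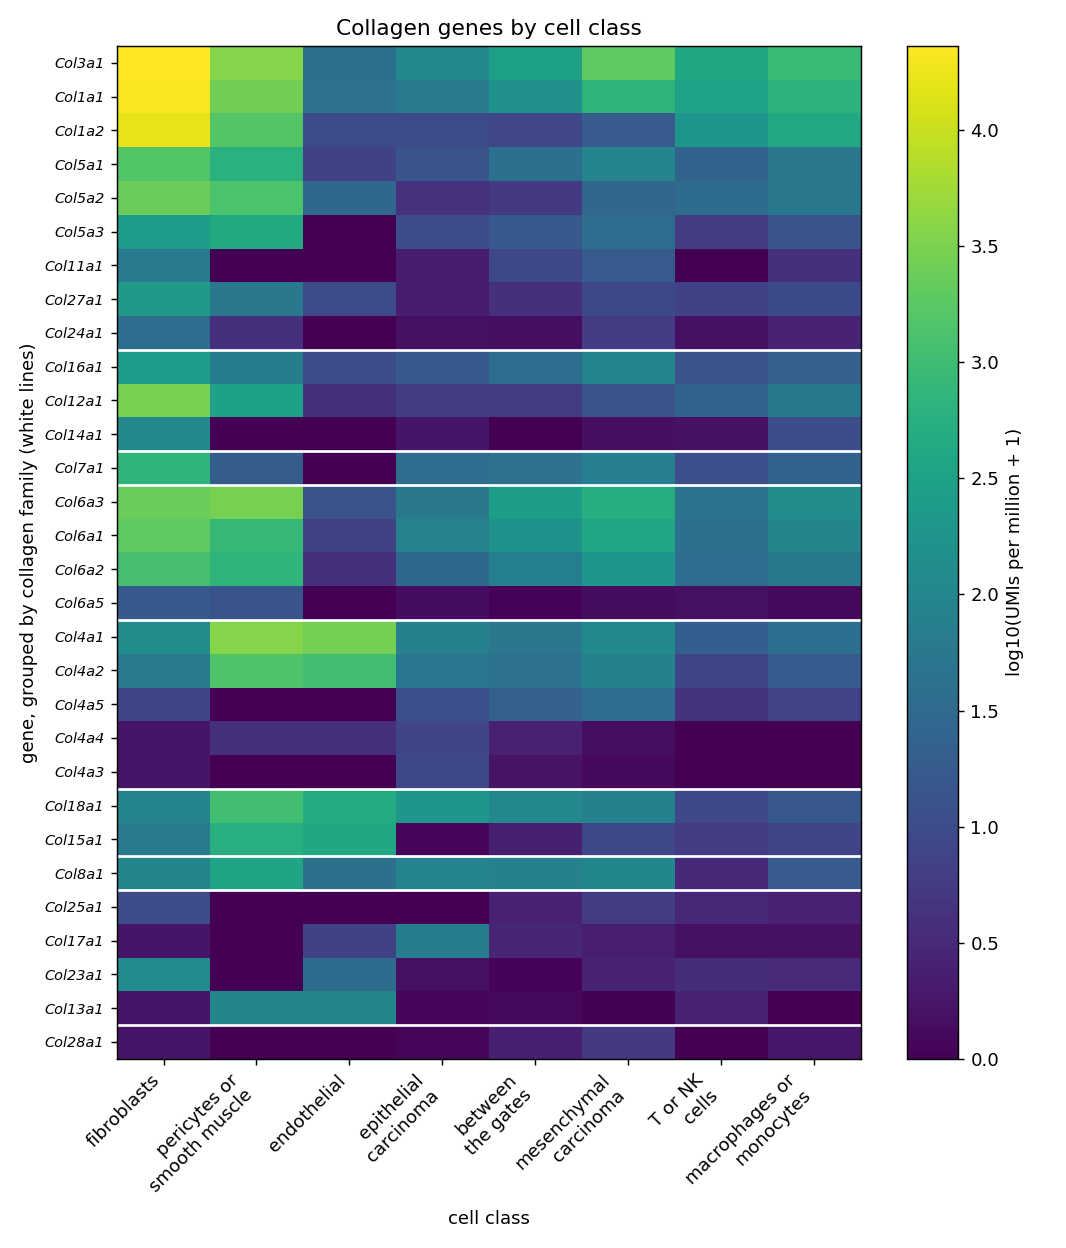
Level of each of the 30 collagen genes (vertical, grouped by family between white lines) in 8 cell classes (horizontal), coloured by log10 of CPM plus 1. Col3a1, Col1a1 and Col1a2 are brightest in fibroblasts (23088, 20610 and 16760 CPM), and Col4a1 and Col4a2 in pericytes or smooth muscle cells and endothelial cells.

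The fibrillar collagens made up 86.4% of the collagen UMIs of fibroblasts, 62.5% of those of mesenchymal carcinoma cells, 46.2% of those of pericytes or smooth muscle cells and 22.8% of those of epithelial carcinoma cells. In endothelial cells they made up 2.61%, where type IV took 75.7% and types XV and XVIII took 17.6%. Pericytes or smooth muscle cells divided theirs between fibrillar collagen, type IV (22.8%) and type VI (19.8%). T or NK cells, at 81.6% fibrillar collagen, had a makeup near that of fibroblasts.

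**Figure D3:**
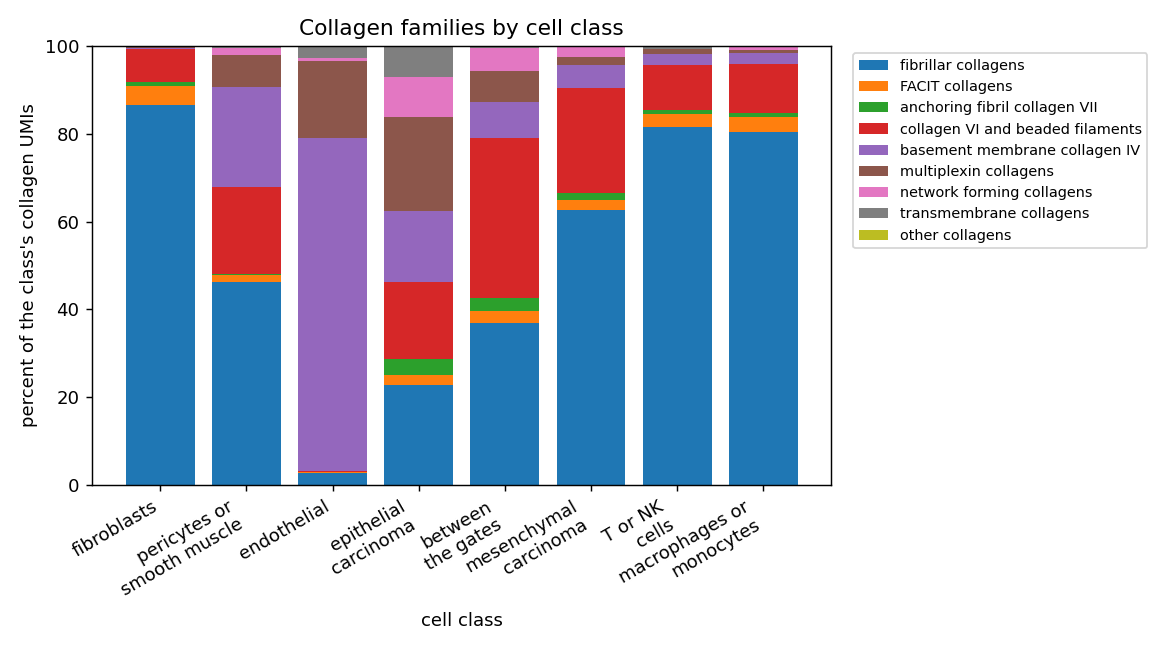
Share of the collagen UMIs of each of 8 cell classes (horizontal) that falls to each collagen family (vertical, percent, stacked bars). Fibrillar collagens fill 86.4% of the fibroblast bar and 2.61% of the endothelial bar, which is 75.7% type IV.

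Col3a1, which encodes the single chain of type III collagen (chromosome 1, 45311538 to 45349706, plus strand, mm10), was the most abundant member with 285687 UMIs in the matrix. Its level was 23088 CPM in fibroblasts, 3749 in pericytes or smooth muscle cells, 1954 in mesenchymal carcinoma cells, 122 in epithelial carcinoma cells and 39.5 in endothelial cells. By barcode set, fibroblasts ran from 19969 over a median of 23599 to 25666 CPM, and mesenchymal carcinoma cells from 1410 over 2156 to 2335 CPM, so these classes did not overlap. Cells with at least 2000 UMIs were thinned to 2000, and the others were left out. After this, 69.2% of mesenchymal carcinoma cells had a Col3a1 UMI, against 13.7% of T or NK cells. The share of epithelial carcinoma cells was 12.6%, no higher than in T or NK cells. Their median depth before thinning was 11705 UMIs against 2740, and thinning does not make the part from free RNA equal. Whether their Col3a1 is background was not tested.

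Type I collagen is normally built from the chains of Col1a1 (chromosome 11, 94936224 to 94953042, plus strand) and Col1a2 (chromosome 6, 4504814 to 4541544, plus strand), whose genes are usually expressed together. In fibroblasts Col1a1 stood at 20610 CPM (sets 15954 to 27363, median 20645) and Col1a2 at 16760 CPM (12058 to 24002, median 17026). That is 1.23 Col1a1 UMIs per Col1a2 UMI (interval 1.21 to 1.25), and the ratio lay between 1.14 and 1.32 in all 6 sets. Pericytes or smooth muscle cells had 2631 CPM of Col1a1 and 1549 CPM of Col1a2, a ratio of 1.70 (1.52 to 1.90).

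Mesenchymal carcinoma cells had another balance. They had 692 CPM of Col1a1 (sets 481 to 1108, median 716) and 16.7 CPM of Col1a2 (sets 8.59 to 30.0, median 17.4). The ratio was 41.3 (interval 39.2 to 43.6) and ran from 31.4 to 87.2 over the 6 sets, with no overlap with fibroblasts or pericytes or smooth muscle cells. In the epithelial carcinoma cells the levels were 59.0 and 9.20 CPM, and in the endothelial cells 42.6 and 9.12 CPM. T or NK cells had 329 CPM of Col1a1 and 192 CPM of Col1a2, a ratio of 1.71 (1.5 to 1.96). As a mean of CPM over cells, Col1a2 was at 27.5 CPM in mesenchymal carcinoma cells. Their Col1a2 level was under that of T or NK cells of the same set in 5 of 6 sets, and above it in set 5 (14.0 against 6.59 CPM, the latter from 2 UMIs). Their Col1a1 level was above that of T or NK cells in 5 of 6 sets. In set 1 it was 622 against 661 CPM. The latter came from 49 UMIs of 18 cells, with an interval of 489 to 874 that includes 622, so the order there is not settled.

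The same split appeared in single cells. Thinned to 2000 UMIs, 44.2% of 6742 mesenchymal carcinoma cells had a Col1a1 UMI and 2.54% had a Col1a2 UMI. The shares in the 350 of 497 T or NK cells that had at least 2000 UMIs were 8% and 5.43%. The Col1a2 share of the carcinoma cells was not above this. Before thinning, the median depth was 10900 UMIs in mesenchymal carcinoma cells and 2740 in T or NK cells. Thinning does not make the part from free RNA equal, so whether this Col1a2 is background was not tested. Without thinning, mesenchymal carcinoma cells had a Col1a1 UMI in 68.2% and a Col1a2 UMI in 10.8% of cells. Of the 2979 mesenchymal carcinoma cells with Col1a1 after thinning, 101 (3.39%, interval 2.77 to 4.10%) also had Col1a2. In fibroblasts all 142 thinned cells had both (at least 97.4% by the interval). Carcinoma cells with fibroblast markers lay between, at 43.6% of 78 cells and a ratio of 2.57 in their summed UMIs. Of all 88 such cells, 32 lay in the cluster that held the fibroblasts. The 88 cells had a median of 13486 UMIs, against 8774 in fibroblasts and 10900 in mesenchymal carcinoma cells. Whether doublets are among them was not tested.

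**Figure D4:**
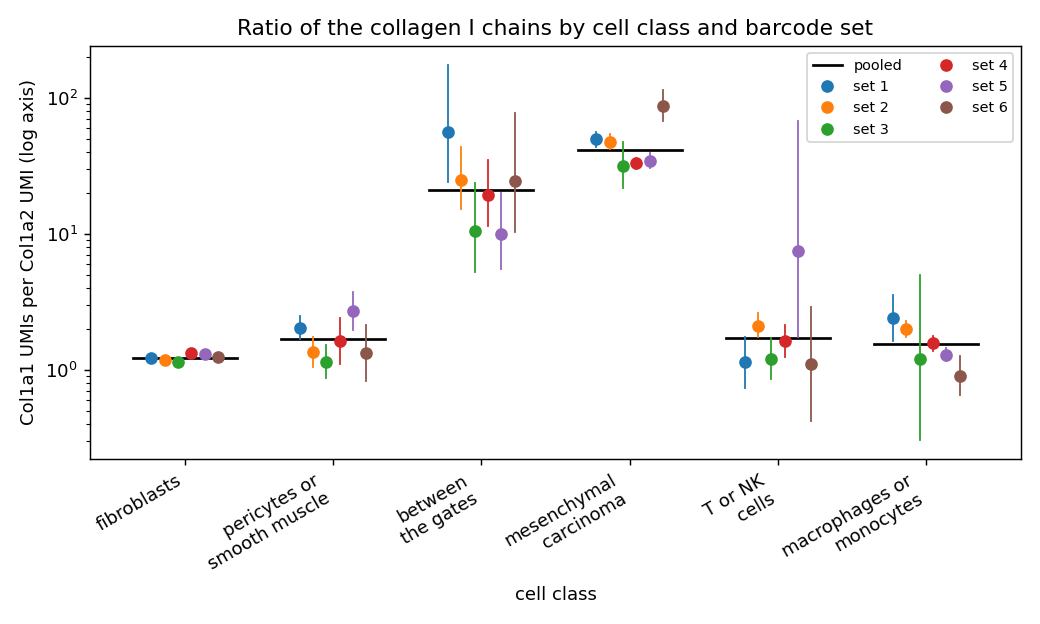
Col1a1 UMIs per Col1a2 UMI (vertical, log axis) in 6 cell classes (horizontal), with 1 point per barcode set, vertical lines for the 95% binomial interval and black bars for the pooled ratio. Fibroblasts lie between 1.14 and 1.32 and mesenchymal carcinoma cells between 31.4 and 87.2.

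RefSeq promoter windows (250 bases before to 50 after the gene start, GRCm38.p6) were at hand for 25 of the 30 genes. Those of Col1a2 and Col3a1 are printed. The fibroblast levels of these genes were 1001 and 11.8 times those of mesenchymal carcinoma cells. Col1a2 was not alone in a large fold: Col12a1, Col14a1 and Col5a2 were at 245, 235 and 89.3. Whether the windows bear on these levels was not tested. Capitals mark 3 motifs, searched on both strands: TATAAA, known as the TATA box, then CCAAT, and GGGCGG, known as the GC box. No matches overlapped. The Col1a2 window lies on the plus strand at chr6:4505368-4505667, downstream of the gene start that GENCODE lists, and the Col3a1 window on the plus strand at chr1:45311288-45311587.
Col1a2: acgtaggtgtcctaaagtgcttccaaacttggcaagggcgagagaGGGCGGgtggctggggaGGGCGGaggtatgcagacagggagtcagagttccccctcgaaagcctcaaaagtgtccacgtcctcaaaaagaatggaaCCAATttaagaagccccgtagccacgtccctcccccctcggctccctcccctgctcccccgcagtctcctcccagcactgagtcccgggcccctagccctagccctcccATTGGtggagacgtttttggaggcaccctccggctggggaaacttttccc
Col3a1: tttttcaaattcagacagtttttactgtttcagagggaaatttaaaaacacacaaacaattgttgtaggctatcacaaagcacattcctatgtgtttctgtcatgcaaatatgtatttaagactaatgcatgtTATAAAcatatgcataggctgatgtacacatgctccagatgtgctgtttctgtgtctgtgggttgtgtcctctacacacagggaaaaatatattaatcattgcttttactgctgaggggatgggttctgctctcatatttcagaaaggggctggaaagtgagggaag
The Col1a2 window held 2 GC boxes, first bases 205 and 188 before the start, and CCAAT boxes 109 before the start and on the opposite strand at base 1, and no TATAAA. The Col3a1 window held 1 TATAAA, 117 bases before the start, and neither of the other motifs. Of all 32851 promoter windows, 13.6% held TATAAA, 37.4% CCAAT and 35.7% GGGCGG. The windows were 61.0% and 37.7% G or C, beside a median of 52.7% over all windows.

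Type V collagen regulates fibril growth, and its chains also differed in balance. Col5a2 (chromosome 1, 45374321 to 45503282, minus strand), the neighbour of Col3a1, was at 2408 CPM in fibroblasts (sets 2080 to 2829, median 2497), 1366 in pericytes or smooth muscle cells, 27.4 in endothelial cells, 27.0 in mesenchymal carcinoma cells and 3.19 in epithelial carcinoma cells. T or NK cells had 34.3 CPM pooled. They were measured above the mesenchymal carcinoma cells in sets 1, 2 and 4 and below them in sets 3, 5 and 6. In sets 2 and 3 the T or NK intervals (37.2 to 83.4 and 3.85 to 36.2 CPM) include the carcinoma levels of 45.9 and 18.2 CPM. The order there is not settled. Per Col5a2 UMI there were 9.59 Col3a1 UMIs in fibroblasts (sets 9.07 to 10.5), 2.74 in pericytes or smooth muscle cells (1.37 to 4.49) and 72.5 in mesenchymal carcinoma cells (47.8 to 144). Col5a1 was at 1517 CPM in fibroblasts (sets 1029 to 1897, median 1512), 613 in pericytes or smooth muscle cells, 89.2 in mesenchymal carcinoma cells, 12.6 in epithelial carcinoma cells and 6.08 in endothelial cells, against 23.8 in T or NK cells. Its ratio to Col5a2 was 0.63 in fibroblasts and 3.31 in mesenchymal carcinoma cells. The third chain, Col5a3, was highest in pericytes or smooth muscle cells at 440 CPM, with 261 in fibroblasts and 35.5 in mesenchymal carcinoma cells.

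The rarer fibrillar genes were highest in fibroblasts: Col27a1 at 226 CPM, Col11a1 at 60.6 and Col24a1 at 36.7. Col11a1, known from cartilage and tumor stroma, was at 17.0 CPM in mesenchymal carcinoma cells, and no UMI was counted in endothelial cells, pericytes or smooth muscle cells, or T or NK cells.

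Among the collagens that coat fibrils, Col12a1 was the most abundant in fibroblasts. It was at 2946 CPM there (sets 1616 to 4164, median 2703), 313 in pericytes or smooth muscle cells, 12 in mesenchymal carcinoma cells, 5.26 in epithelial carcinoma cells and 3.04 in endothelial cells. The fibroblast level was 245 times that of mesenchymal carcinoma cells. T or NK cells had 22.7 CPM pooled. They were measured above the mesenchymal carcinoma cells in sets 1 to 4 and had no UMI in sets 5 and 6. In sets 3 and 4 their intervals (7.8 to 46.2 and 5.4 to 39.0 CPM) include the carcinoma levels of 13.9 and 12.5 CPM. The zeros allow up to 12.2 and 9.42 CPM, above the carcinoma levels of 7.35 and 8.73 CPM. The order is thus not settled in sets 3 to 6. Col14a1 followed the same pattern at a lower level, 115 CPM in fibroblasts and at most 0.75 CPM in the other 4 classes. It was uneven between sets, from 0 to 268 CPM in fibroblasts. Col16a1 was shared more evenly, at 248 CPM in fibroblasts (sets 168 to 333), 92.9 in mesenchymal carcinoma cells (63.2 to 113), 68.2 in pericytes or smooth muscle cells, 15.6 in epithelial carcinoma cells and 9.12 in endothelial cells.

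Col7a1, whose product anchors epithelial basement membranes to the matrix, was at 710 CPM in fibroblasts, 72.8 in mesenchymal and 34.8 in epithelial carcinoma cells and 18.6 in pericytes or smooth muscle cells, with no UMI in endothelial cells. Set 1 weighed on the fibroblast value: it reached 1202 CPM there, and the pooled level without set 1 was 472 CPM.

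Type VI collagen made up 24.0% of the collagen UMIs of mesenchymal carcinoma cells, second to the fibrillar collagens, and 17.5% of those of epithelial carcinoma cells. Col6a3 (chromosome 1, 90765923 to 90843971, minus strand) was at 2916 CPM in pericytes or smooth muscle cells (sets 1623 to 3947), 2454 in fibroblasts (1442 to 3407), 515 in mesenchymal carcinoma cells (410 to 671), 54.8 in epithelial carcinoma cells and 12.2 in endothelial cells. The ranges of the first pair overlapped. Col6a1 and Col6a2, neighbours on chromosome 10 (76708792 to 76726168 and 76595762 to 76623630, minus strand), were highest in fibroblasts. Col6a1 was at 1927 CPM there (sets 1311 to 2489), 818 in pericytes or smooth muscle cells, 377 in mesenchymal carcinoma cells (276 to 637), 84.9 in epithelial carcinoma cells and 6.08 in endothelial cells. Col6a2 was at 1186 (893 to 1536), 716, 199 (140 to 344), 27.2 and 3.04 CPM in the same order of classes. The Col6a1 to Col6a2 ratio overlapped between fibroblasts (1.63, sets 1.28 to 2.04) and mesenchymal carcinoma cells (1.90, sets 1.72 to 1.98), which the type I ratio did not. It was 1.14 in pericytes or smooth muscle cells and 3.12 in epithelial carcinoma cells. Col6a3 UMIs per Col6a1 UMI were 1.27 in fibroblasts, 1.37 in mesenchymal carcinoma cells and 3.56 in pericytes or smooth muscle cells. Col6a5, with 130 UMIs in the matrix, was highest in fibroblasts at 15.9 CPM.

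Type IV collagen was the largest family in endothelial cells and the second largest, after the fibrillar collagens, in pericytes or smooth muscle cells. Col4a1 (chromosome 8, 11198423 to 11312826, minus strand) and Col4a2 (11312805 to 11449287, plus strand) encode the common chains of type IV collagen and lie head to head. Col4a1 was at 3684 CPM in pericytes or smooth muscle cells (sets 3025 to 4291, median 3610), 2781 in endothelial cells (1459 to 3348, median 2664), 139 in fibroblasts, 120 in mesenchymal carcinoma cells (89.7 to 210) and 79.8 in epithelial carcinoma cells. Col4a2 was at 1453 (1058 to 2123), 1103 (365 to 1430), 60.6, 81.2 (53.4 to 131) and 51.3 CPM in the same order. For both genes the sets of pericytes or smooth muscle cells and of endothelial cells overlapped, and every set of these classes lay above every set of fibroblasts and carcinoma cells. There were 2.54 Col4a1 UMIs per Col4a2 UMI in pericytes or smooth muscle cells (interval 2.28 to 2.83) and 2.52 in endothelial cells (2.23 to 2.85). Mesenchymal carcinoma cells had 1.48 (1.43 to 1.52), with sets from 1.27 to 1.68, under the 1.88 to 2.89 of pericytes or smooth muscle cells.

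The promoter windows of this pair are printed because they overlap, with 78 bases in common (chr8:11312777-11312854, GRCm38.p6). Col4a1 is read from the minus strand (chr8:11312777-11313076) and Col4a2 from the plus strand (chr8:11312555-11312854), each 5′ to 3′ along its own gene, with the same motifs in capitals.
Col4a1: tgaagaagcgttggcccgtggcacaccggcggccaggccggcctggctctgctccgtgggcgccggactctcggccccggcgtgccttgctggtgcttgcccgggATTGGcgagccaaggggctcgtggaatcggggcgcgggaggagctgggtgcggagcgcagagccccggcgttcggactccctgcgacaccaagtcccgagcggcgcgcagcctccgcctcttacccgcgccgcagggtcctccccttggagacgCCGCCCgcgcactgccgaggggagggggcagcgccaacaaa
Col4a2: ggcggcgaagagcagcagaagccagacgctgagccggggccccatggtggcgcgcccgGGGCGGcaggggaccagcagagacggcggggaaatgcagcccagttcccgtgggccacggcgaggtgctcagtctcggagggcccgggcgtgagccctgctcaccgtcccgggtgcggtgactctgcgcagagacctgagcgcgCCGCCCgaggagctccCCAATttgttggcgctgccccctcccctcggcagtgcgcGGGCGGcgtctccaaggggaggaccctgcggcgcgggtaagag
Neither window held TATAAA. The Col4a1 window held a CCAAT box on the opposite strand, 145 bases before its start, and a GC box on the opposite strand at base 10. The Col4a2 window held a CCAAT box 32 bases before its start. Its GC boxes lay 192 bases before the start, 48 bases before it on the opposite strand, and at base 8. The last of these and the Col4a1 box at base 10 are the same site, within the bases in common. The windows were 74.0% and 73.7% G or C.

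Col18a1 and Col15a1, whose products can be cut to fragments that restrain vessel growth, were also highest at the vessels. Col18a1 was at 1115 CPM in pericytes or smooth muscle cells (sets 836 to 1380), 489 in endothelial cells (182 to 723), 204 in epithelial carcinoma cells (154 to 244), 86.9 in fibroblasts and 80.7 in mesenchymal carcinoma cells (59.9 to 147). Every set of epithelial carcinoma cells was above every set of mesenchymal ones. Col15a1 was at 545 CPM in pericytes or smooth muscle cells (344 to 709), 413 in endothelial cells, 61.4 in fibroblasts, 7.69 in mesenchymal and 0.19 in epithelial carcinoma cells, the last from 1 UMI. Col8a1, a network-forming collagen of vessel walls, was at 347 CPM in pericytes or smooth muscle cells (115 to 764), 98.4 in mesenchymal carcinoma cells (61.3 to 141), 97.3 in fibroblasts, 88.1 in epithelial carcinoma cells and 39.5 in endothelial cells.

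Of the membrane-bound collagens, Col13a1 was at 97.3 CPM in endothelial cells (32 UMIs) and 96.1 CPM in pericytes or smooth muscle cells (31 UMIs), 267 and 259 times the level in all other analysed cells. Its 2 intervals, 66.5 to 137 and 65.3 to 136 CPM, overlapped almost fully, and some sets had no UMI in either class. It was at 0.80 CPM in fibroblasts and 0.19 CPM in epithelial carcinoma cells, from 1 UMI each, and 0.07 CPM in mesenchymal carcinoma cells. Col13a1 had 83 UMIs in the matrix and met the UMI limit only through endothelial cells and pericytes or smooth muscle cells together. Col23a1 was at 125 CPM in fibroblasts (sets 56.6 to 198) and 33.4 CPM in endothelial cells (11 UMIs). Col25a1 was at 9.57 CPM in fibroblasts (12 UMIs, interval 4.94 to 16.7) and 5.01 CPM in mesenchymal carcinoma cells (4.55 to 5.50), which overlap, with no UMI in the other 3 classes.

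Col17a1, the hemidesmosome collagen of basal keratinocytes, was at 66.1 CPM in epithelial carcinoma cells (interval 59.4 to 73.4), 6.08 in endothelial cells (2 UMIs), 1.34 in mesenchymal carcinoma cells and 0.80 in fibroblasts, with no UMI in pericytes or smooth muscle cells. The level in epithelial carcinoma cells ran from 0 to 109 CPM over the sets, with a median of 21.7. Set 3, which held 213 of the 385 epithelial carcinoma cells, was the highest, and without it the level was 21.4 CPM. Thinned, 8.64% of epithelial carcinoma cells had a Col17a1 UMI, against 0.30% of mesenchymal carcinoma cells and 0 of 350 T or NK cells, which allows a share of up to 0.857% (3 counts of 350).

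The other type IV chains, Col4a3 and Col4a4, are neighbours on chromosome 1 (82586921 to 82722059, plus strand, and 82448423 to 82586849, minus strand). Both were highest in epithelial carcinoma cells, at 7.70 and 7.14 CPM from 41 and 38 UMIs. Col4a3 had 90 UMIs in the matrix, and without those 41 it would have missed the UMI limit. Pericytes or smooth muscle cells and endothelial cells had no UMI of Col4a3 and at most 3.10 CPM of Col4a4. With the few UMIs of those classes, levels as high as in epithelial carcinoma cells are not excluded. Col4a3 was at 0.27 CPM and Col4a4 at 0.48 CPM in mesenchymal carcinoma cells. Col4a5, on chromosome X, was instead highest in mesenchymal carcinoma cells in all 6 sets, at 34.8 CPM (25 to 47.5). It was at 10.5 CPM in epithelial carcinoma cells and 7.18 in fibroblasts, with no UMI in pericytes or smooth muscle cells or endothelial cells. Col28a1, found in peripheral nerve, was the other gene measured highest in mesenchymal carcinoma cells, at 4.32 CPM (2.08 to 8.78). Fibroblasts were at 0.80 CPM and epithelial carcinoma cells at 0.19 CPM, from 1 UMI each. Pericytes or smooth muscle cells and endothelial cells had no UMI of Col28a1. Those classes held 322739 and 329024 gene UMIs in all, too few to exclude a level above 4.32 CPM.

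Set side by side, fibroblasts exceeded mesenchymal carcinoma cells at least 2-fold for 19 of the 30 genes, against 11.1% of all genes. Only Col28a1 and Col4a5 were at least 2-fold lower, against 17.4%. The median fold over the 30 genes was 6.66, beside 0.87 over all genes. Epithelial carcinoma cells were at least 2-fold above mesenchymal ones for Col17a1, Col18a1, Col4a3 and Col4a4 (7.74% of all genes) and at least 2-fold lower for 19 genes (12.4% of all genes). Of these, Col4a3 met the UMI limit only through epithelial carcinoma cells. The median fold of this comparison was 0.29, beside 0.92 over all genes.

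Genes that help to make collagen were read from lists of the pathway. Of 21 measured genes for hydroxylation, folding and glycosylation of the chains, 13 were at least 2-fold higher in fibroblasts than in mesenchymal carcinoma cells and 1 (P3h2, from 2 UMIs in fibroblasts) at least 2-fold lower, beside 11.1% and 17.4% of all genes, with a median fold of 2.32. Serpinh1, a chaperone specific to procollagen, was at 2108 CPM in fibroblasts, 1816 in pericytes or smooth muscle cells, 1182 in endothelial cells, 249 in mesenchymal and 34.8 in epithelial carcinoma cells. Ppib and P4hb, which also serve other proteins, were close to even, at 825 and 571 CPM in fibroblasts and 625 and 434 CPM in mesenchymal carcinoma cells. Of 13 genes for procollagen processing and cross-linking, 8 were at least 2-fold higher in fibroblasts and none at least 2-fold lower, beside the same 11.1% and 17.4%, with a median fold of 3.56. Sparc, a collagen-binding protein of the matrix, was at 10671 CPM in fibroblasts and 3078 CPM in mesenchymal carcinoma cells. Bmp1, which cuts the C-terminal propeptide, was at 600 and 98.5 CPM, and Pcolce, which enhances that cut, at 254 and 291 CPM.

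Mesenchymal carcinoma cells differed among themselves in collagen. Their cells with at least 5000 UMIs were ranked within each barcode set by the share of UMIs from a marker list, and the top 10% (587 cells) were compared with the other 5319 cells. Such a group is a range of a score and not a cell type: between 111 and 253 cells lay within 10% of the limit, and groups share cells. Of the 30 genes, 25 had enough UMIs for this comparison.

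Cells rich in 11 matrix genes other than collagens (such as Dcn, Lum and Postn) had 12638 CPM of summed collagen against 3731 CPM in the rest, 3.39 times as much, and 3.10 to 4.02 times in the single sets. In them 20 of the 25 genes were at least 2-fold higher, against 5.72% of all genes tested. Col3a1 was at 6143 against 1541 CPM, Col1a1 at 2266 against 529 CPM, Col5a2 at 131 against 17.4 CPM and Col12a1 at 43.8 against 8.67 CPM. Col1a2 was at 60.1 against 10.9 CPM and higher in 6 of 6 sets, beside the pooled 192 CPM of T or NK cells. Several of the ranking genes are also fibroblast markers, and the fibroblast marker list stood at 5174 CPM (sets 3456 to 7036) against 675 CPM (465 to 936), with all 14 markers above 0 in both groups. Lrrc15 was at 4.62 against 2.20 CPM, far under the 369 CPM of fibroblasts. Pericyte or smooth muscle markers were even, at 39.5 CPM in both groups, and leukocyte markers were at 26.3 against 16.7 CPM. Cells rich in the matrix genes were also shallower, with a median of 9225 UMIs against 12664. The parts of the markers and of depth in the result were not tested.

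Collagen levels were lower in cells in division. Mitotic cells had 2386 against 4707 CPM, a fold of 0.51 (sets 0.28 to 0.61), and S phase cells 2603 against 4647 CPM, a fold of 0.56 (0.44 to 0.61). Each was lower in 6 of 6 sets. In mitotic cells 11 of 25 genes were at least 2-fold lower, against 6.75% of all genes, and in S phase cells 11 of 25, against 5.27%. Col3a1 was at 805 against 2052 CPM in mitotic cells and Col4a1 at 50.1 against 125 CPM, while Col6a3 (419 against 524 CPM) and Col8a1 (88.5 against 100.1 CPM) differed less. Mitotic cells were also deeper, with a median of 18684 UMIs against 11643, and S phase cells with 17051 against 11730. The part of depth in the result was not tested.

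The remaining states differed little in their summed level. It was 1.26 times the rest in cells rich in Tslp and Tac1, 1.11 times in hypoxic cells, 1.08 times in interferon-responding cells and 1.03 times in cells rich in Smoc2 and Abcg2. The sets did not agree for hypoxic cells (0.69 to 2.14) or for Smoc2 and Abcg2 cells (0.57 to 2.87), and those 2 values turned below 1 without 1 set, to 0.93 without set 2 and to 0.83 without set 1. Some single genes differed more within these states. Col25a1, a membrane collagen of neurons, was at 33.7 CPM in Smoc2 and Abcg2 cells (239 UMIs) against 2.00 CPM in the rest (151 UMIs), 16.9 times as much. It was higher in 5 of 6 sets, with no UMI in set 3, and 10.5 times as high without set 4. It was the one of 25 members at least 2-fold higher in that state, a count near the 2.71% of all genes. The count thus does not set the collagens apart. Col4a1, Col4a2 and Col4a5 were 1.64, 1.63 and 1.86 times as high there, in 6 of 6 sets. Col15a1 and Col17a1 were lower there, at 0.33 and 0.40 times the rest (18 and 4 UMIs) and higher in 1 and 0 of 6 sets. Col15a1 was the one of 25 members at least 2-fold higher in hypoxic cells, a count near the 2.93% of all genes. It was at 23.6 against 5.88 CPM there, 4.01 times as much, and higher in 4 of 6 sets. In the cells rich in matrix genes Col15a1 was further apart, at 37.6 against 4.87 CPM (7.74 times) and higher in 5 of 6 sets. The hypoxic and matrix groups shared 88 cells. Hypoxic cells had a median of 9754 UMIs against 12583 in the rest. In Tslp and Tac1 cells Col11a1 was at 32.1 against 15.3 CPM, higher in 5 of 6 sets, and Col25a1 at 1.55 against 5.09 CPM (13 UMIs against 377), higher in none of the 6. The share over all genes was not taken for the Tslp and Tac1 state or for lower genes in the Smoc2 and Abcg2 state. These genes are therefore given as single values only.

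**Figure D5:**
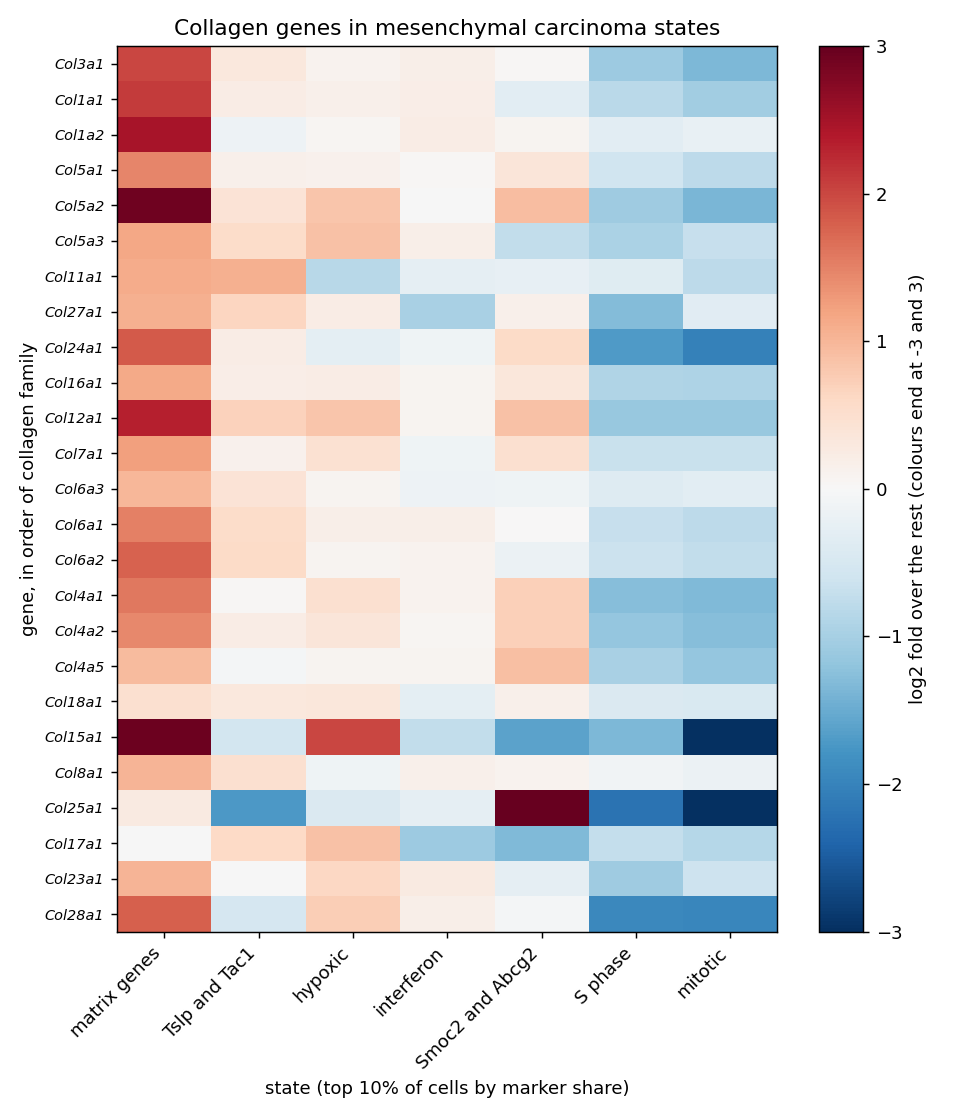
Log2 of the fold of 25 collagen genes (vertical) in 7 states of mesenchymal carcinoma cells over the rest of these cells (horizontal), as colours. The column of matrix genes is higher for most genes, the S phase and mitotic columns are lower, and Col25a1 stands out in the column of Smoc2 and Abcg2.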

How the data were processed

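Viable cells of 6 tumors were pooled and sequenced as droplet 3′ RNA-seq. The deposited data are raw UMI counts in 1 matrix (32285 genes, 12 tags, 14818 cells), which per the file headers came from Cell Ranger 7.0.0. The submitters' processing notes name Cell Ranger 7.1, Seurat and build mm10, and the design text names Seurat 4.1.0. Filters before deposit are not given in the sources used here.

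The collagen genes and all lists were chosen with earlier results of these data known, and the gate limits were chosen after the data were seen. The filter asked for 500 or more genes and less than 15% mitochondrial UMIs per cell (13768 cells), and the 21 marked by scrublet (scanpy 1.11.5) were left out. A cell with at most 2 leukocyte markers was a fibroblast with at least 7 of 14 fibroblast markers, a Y-linked UMI and no Xist, and a pericyte (12 markers) or endothelial cell (13 markers) with no Xist and at least 5 of its markers. Counts were summed per class, compared as CPM with exact Poisson or binomial (Clopper-Pearson) intervals at 95% (scipy 1.17.1), and called at 2 times or more with more than 3 counts on the higher side. Shares of cells were also taken after thinning each cell with at least 2000 UMIs to 2000, and cells with fewer were left out. No p-value was computed, since cells are not replicates. The script was tested on simulated data. Leiden clusters (leidenalg 0.10.2, resolution 1) left the collagens out.

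Every member is placed by its highest class. Full levels are given for the 12 with the most UMIs, for the 2 of largest level and of largest fold in each class, and for neighbouring pairs. In pathway lists the 3 genes with the most UMIs are named. Any other member is named because its values stood out. Promoter sequences come from RefSeq (GRCm38.p6), and positions in mm10 from GENCODE. Alternatives were other cell filters and gates, clusters in place of gates, other scaling, and leaving out each barcode set. Fibroblasts gated without a Y-linked UMI and states of the top 5% were added after seeing the data.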

Additional observations from a re-analysis of the deposited data

How the results depend on the processing

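No paired analysis was possible because no label ties a tag or barcode set to a numbered tumor. For the same reason the planned tests of treated against vehicle tumors (edgeR, with DESeq2 as the alternative) were not run. The cause of a shift below was not tested.

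Asking for 1000 genes and under 10% mitochondrial counts gave 75919 CPM in fibroblasts, 4518 in mesenchymal carcinoma cells and a ratio of 16.8. Leaving out doublet scores of at least 0.25 gave 76530 CPM in fibroblasts, a ratio of 16.8 and shares of 12.9% (fibroblasts) and 53.1% (mesenchymal carcinoma cells), and keeping all doublets gave 51.9% for the latter. With 1 more marker per gate, fibroblasts had 78279 CPM, endothelial cells 5426 CPM, the ratio was 17.2 and the fibroblast share 10.5%. With 1 more Xist and Y-linked UMI, fibroblasts had 78229 CPM, the ratio was 17.2, the shares 7.57% and 50.9% and the Col1a1 to Col1a2 ratio 46.5. Leiden clusters in place of gates gave 48628 CPM (fibroblasts), 21217 (pericytes or smooth muscle cells), 4643 (endothelial cells), 1680 (epithelial) and 4186 (mesenchymal carcinoma cells), a ratio of 11.6, shares of 31.4% and 61.9% and a Col1a1 to Col1a2 ratio of 47.4. The mean of CPM over cells gave 77541, 23319 and 5713 CPM in fibroblasts, pericytes or smooth muscle cells and mesenchymal carcinoma cells, and a ratio of 13.6. Totals without collagens gave 81267 and 4570 CPM and a ratio of 17.8, and fibroblasts gated without a Y-linked UMI 72232 CPM, a ratio of 15.9 and a share of 16.5%.

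Leaving out each barcode set in turn gave 71174 to 78913 CPM in fibroblasts, 21764 to 23575 in pericytes or smooth muscle cells, 4782 to 5306 in endothelial cells, 905 to 1085 in epithelial and 4382 to 4901 in mesenchymal carcinoma cells. The ratio ran from 15.6 to 17.5, the shares from 10.8 to 14.8% and 49.8 to 54.0%, and the Col1a1 to Col1a2 ratio from 39.3 to 46.4. Of 407 alternatives for 25 single genes and states, 9 moved a value over 1.5 times. Col1a2 in mesenchymal carcinoma cells was 27.5 CPM as a mean over cells. The collagen fold of the hypoxic state ran from 0.928 (without set 2) to 1.21 (without set 1), and that of the Smoc2 and Abcg2 state from 0.834 (without set 1) to 1.13 (without set 2). Small classes limit the precision: 11 fibroblasts in set 3, and 3 pericytes or smooth muscle cells in set 6.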

Other observations

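Of 9 measured collagen receptor genes, 1 was at least 2-fold higher in fibroblasts than in mesenchymal carcinoma cells and 2 at least 2-fold lower, near the 11.1% and 17.4% of all genes, with a median fold of 0.88. Itga1, the collagen-binding integrin alpha chain, was at 1032 CPM in pericytes or smooth muscle cells, 104 in fibroblasts and 75.3 in mesenchymal carcinoma cells. Its partner Itgb1 was between 731 and 1314 CPM in fibroblasts, pericytes or smooth muscle cells, endothelial cells and both carcinoma classes. Ddr2, a receptor tyrosine kinase for fibrillar collagen, was at 189 CPM in pericytes or smooth muscle cells, 128 in fibroblasts, 78.3 in mesenchymal and 7.70 in epithelial carcinoma cells, with no UMI in endothelial cells.

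Of 7 genes for collagen degradation, 6 were at least 2-fold higher in fibroblasts than in mesenchymal carcinoma cells and none at least 2-fold lower. Over all genes the shares were 11.1% and 17.4%. The median fold was 32.9, which lies between the folds of Mmp9 (5.55) and Mmp2 (60.2). Mmp2 is also a marker of the fibroblast gate, so its fold was set in part by the gate. Ctsk, a collagen-cutting protease known from osteoclasts, was at 436 CPM in fibroblasts, 403 CPM in macrophages or monocytes and 4.79 CPM in mesenchymal carcinoma cells. Mmp9 was at 293 CPM in macrophages or monocytes and 20.7 CPM in fibroblasts. Mmp14, a membrane-bound protease that cuts fibrillar collagen, was at 443 CPM in fibroblasts, 426 in endothelial cells, 313 in pericytes or smooth muscle cells, 137 in mesenchymal and 104 in epithelial carcinoma cells.

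Macrophages or monocytes had a summed collagen level of 2579 CPM, but it ran from 436 CPM in set 1 to 6938 CPM in set 2, at a median of 2474 UMIs per cell. In T or NK cells it was highest in set 1, at 3979 CPM (18 cells), and 2167 CPM in set 2.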
